A study of Mus musculus with 108 samples.

Results

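RNA from the hippocampus (HIP) and the cerebellum (CB) of the same wild-type (WT) mice at P35 was compared, to ask which genes differ between a forebrain and a hindbrain cortex of the adult animal. The comparison held 10 of the 108 libraries of the series: those titled P35_HIP_WT and P35_CB_WT from 5 mice, numbered 1, 2, 3, 5 and 6 in the labels, with 1 library of each region per mouse. A sixth mouse, P35_23, was left out because its genotype is given as WT in the sample labels and as heterozygous in the tables of the study. All groups used here are mice of the C57BL/6N background (spelled C56Bl/6N in the labels), with no treatment in the labels, and the WT mice carry no mutated allele. The P35 groups are labelled adult and the P7 group postnatal. Cul3+/- mice, which carry an insertion of a single base in the coding sequence of Cul3 and descend from a single founder, are the other genotype of the series. Of these, 5 mice of the same age and 6 WT mice at P7 (postnatal day 7) served as further comparisons. Mouse P35_22, labelled heterozygous, was left out because the tables of the study give it the opposite genotype. The sex of the mice is not in the labels. Values are normalised read counts as CPM, scaled to the size of each library, differences are log2 fold changes of hippocampus minus cerebellum with their standard error (SE), and calls rest on p-values adjusted by Benjamini and Hochberg, with 0.1 as the limit, in edgeR's quasi-likelihood test with mouse as a block.

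The hippocampus is built of glutamatergic pyramidal cells of the CA fields and granule cells of the dentate gyrus, with a smaller number of diverse GABAergic interneurons, and the dentate gyrus keeps making neurons after birth. The cerebellar cortex is dominated by very small and densely packed granule cells, whose parallel fibres contact the Purkinje cells, the only output neurons of that cortex. Both use glutamate and GABA, but with different receptor subunits, calcium sensors and adhesion molecules.

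The regions before the start sites of 3 genes with large contrasts described below are shown. These genes are the subunits alpha5 and alpha6 of the GABA-A receptor, which lay at opposite ends of their family, and Pcp2, a Purkinje cell gene. Each sequence is the 250 bases before the RefSeq start site on GRCm38.p6, read 5′ to 3′ on the minus strand, from chr7:57510060-57510309, chr11:42321073-42321322 and chr8:3625548-3625797. Capitals mark matches to AGGTCA, a site read by the ROR nuclear receptors, or to CAGATG, an E-box read by NeuroD factors, searched on both strands.
Gabra5: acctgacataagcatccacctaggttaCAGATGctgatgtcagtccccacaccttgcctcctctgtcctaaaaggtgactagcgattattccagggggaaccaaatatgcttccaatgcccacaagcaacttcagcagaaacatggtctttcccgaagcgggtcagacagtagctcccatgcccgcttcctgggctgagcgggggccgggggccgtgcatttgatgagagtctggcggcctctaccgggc
Gabra6: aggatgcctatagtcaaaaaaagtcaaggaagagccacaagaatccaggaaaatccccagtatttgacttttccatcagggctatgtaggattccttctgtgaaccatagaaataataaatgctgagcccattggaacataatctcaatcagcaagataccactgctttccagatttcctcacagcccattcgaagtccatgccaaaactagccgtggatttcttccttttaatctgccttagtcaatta
Pcp2: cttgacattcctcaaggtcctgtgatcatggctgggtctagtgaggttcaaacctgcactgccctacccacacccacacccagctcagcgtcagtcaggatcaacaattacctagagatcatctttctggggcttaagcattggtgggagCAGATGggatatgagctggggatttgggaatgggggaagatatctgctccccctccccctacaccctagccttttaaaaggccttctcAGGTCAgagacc
The Pcp2 window holds AGGTCA from 12 bases and CAGATG from 100 bases before the start, the Gabra5 window holds CAGATG from 223 bases before it, and the Gabra6 window holds neither. Such matches are common. Of the 32851 promoter windows in the RefSeq table, 14% hold AGGTCA or its complement and 14.4% hold CAGATG or its complement. The shares that follow are of genes and count a match in any window of the gene. A gene with more windows has more chances to match, so these shares and those of windows differ in unit. Of the genes at least 2-fold higher in cerebellum that have a window, 15.9% (191 of 1204) held AGGTCA, beside 13.9% (241 of 1731) of those higher in hippocampus and 13% of the 12032 tested genes with a window. CAGATG was in 15.4% (186 of 1204) and 16.1% (278 of 1731), beside 12.4% of the tested genes. TAATTA, the core read by many homeodomain factors, was found for 4.40% of the cerebellar and 4.39% of the hippocampal genes, beside 3.27% of the tested genes. Other motifs searched were less common than among the tested genes. GCGTGGGCG, an EGR site, was found for 0.997% of the cerebellar and 0.982% of the hippocampal genes, beside 1.19%. TGACGTCA, the cAMP response element, was found for 2.41% and 1.62%, beside 2.93%.

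Between 27477533 and 41106370 counts were assigned to genes per library. One library stood apart from the rest. In cerebellum replicate 3, 7.86% of counts were mitochondrial, beside 4.51 to 4.90% in the other cerebellar and 5.67 to 6.68% in the hippocampal libraries. Slc6a2, the noradrenaline transporter, stood at 0.751, 0.320, 8.59, 0.853 and 0.165 CPM in the cerebellar libraries, given here and below in the order of replicates 1, 2, 3, 5 and 6, so that replicate 3 lay far above the others. Dbh, which makes noradrenaline, stood at 0.261, 0.0914, 4.59, 0.452 and 0.0551 CPM, again highest in replicate 3. Without mouse 3, 13152 genes were called and 4628 of them differed at least 2-fold. Choroid plexus genes varied within both regions. Ttr, a thyroid hormone carrier made by the choroid plexus, stood at 1.75, 31.6, 1875, 1335 and 9.14 CPM in hippocampus and at 2.38, 6.35, 0.423, 2622 and 1194 CPM in cerebellum. It was therefore high in hippocampus replicates 3 and 5 and in cerebellum replicates 5 and 6, and the regions overlapped. All 5 defining markers of this list were detected in both regions.

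The labelled tissues carried their own markers. All 8 defining markers of hippocampal neurons and all 8 of cerebellar neurons were called in the labelled direction, although Prox1, a factor of dentate granule cells, and Wfs1 and Bhlhe22, which mark pyramidal cells, were also expressed in cerebellum, at 32 to 72.6, 21.5 to 38.3 and 45.4 to 69.6 CPM. Of the 7 defining markers of midbrain and brainstem, Hoxb2, Hoxb3 and Hoxb5 were among those at 0 in all hippocampal libraries, and none of the 7 was at 0 in all cerebellar ones. The hippocampal libraries held genes that also mark the neocortex, the 18 genes of the neocortex and striatum list summing to 234 to 297 CPM in hippocampus and 208 to 301 CPM in cerebellum. As whole tissue was sequenced, more cells of a type and more RNA per cell cannot be told apart in any of the differences below.

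Most expressed genes differed between the regions. Of 17460 genes tested, 12698 (72.7%) were called, 6313 (36.2%) higher in hippocampus and 6385 (36.6%) higher in cerebellum. The difference was at least 2-fold for 4620 genes (26.5%), 2530 (14.5%) of them higher in hippocampus and 2090 (12%) higher in cerebellum. The 5 libraries of each region did not overlap for 9698 genes (55.5%). These percentages are the background for every count of members that follows. The median log2 fold change of all tested genes was -0.02 and the median size 0.48. Large differences were more often toward hippocampus: 1170 called genes were at least 4-fold higher there and 786 in cerebellum, 654 and 413 at least 8-fold, and 250 and 134 at least 32-fold. Genes at 5 CPM or more in all libraries of a region and under 0.5 CPM in all of the other numbered 62 for hippocampus and 34 for cerebellum. The 2530 genes at least 2-fold higher in hippocampus supplied 13.4 to 14.3% of its counts and 3.90 to 4.34% of cerebellar counts, and the 2090 higher in cerebellum supplied 12.5 to 14.4% of its counts and 3.25 to 3.45% of hippocampal counts.

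The gene with the largest difference toward hippocampus was Ddn (dendrin, a postsynaptic protein of dendrites), on chromosome 15. Its level was 1764, 1743, 1821, 1569 and 1741 CPM in hippocampus and 0.261, 0.228, 0.130, 0.151 and 0.0551 CPM in cerebellum, a log2 fold change of 13.32 ± 0.21 (adjusted p = 4.8e-09). The libraries of the regions were separated by more than 3 orders of magnitude. Crym, a thyroid hormone binding protein, was at 216, 218, 244, 197 and 264 CPM against 0.131, 0.160, 0.130, 0.0251 and 0.0551 CPM (11.10 ± 0.18 on the log2 scale). Fezf2, a factor of deep-layer projection neurons, was at 17.1, 20.7, 14.2, 21.3 and 14.3 CPM in hippocampus, while the cerebellar libraries together held 2 counts, and the ratio of summed CPM was 1588 (95% Poisson interval 439 to 13109). Slc26a4, an anion exchanger, had 1 cerebellar count (2291, 411 to 90500.3). Lhx2, a forebrain patterning factor, lay at 32.2 to 36.3 CPM in hippocampus against 0 to 0.0551 CPM. Other leading genes were Zfp831, a zinc finger gene (10.38 ± 0.19), Mas1, the receptor for angiotensin-(1-7) (10.15 ± 0.24), Rgs14, a G-protein regulator of CA2 pyramidal cells (9.68 ± 0.18), and Dlx6os1 (9.76 ± 0.27), which lies antisense to Dlx6 and whose reads can be told from that gene only if the counting used strand, a setting not given in the sources used here.

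In the cerebellar direction the largest difference was in Gabra6, the granule cell subunit of the GABA-A receptor. It stood at 723, 735, 569, 688 and 762 CPM in cerebellum and 0.0555, 0.0756, 0.0324, 0.0582 and 0 CPM in hippocampus, where 7 counts were found in all. The ratio of summed CPM was 15796 (95% Poisson interval 7666 to 39288; adjusted p = 4.2e-09). Pcp2, a G-protein modulator of Purkinje cells, was at 231, 257, 221, 228 and 249 CPM, with 3 hippocampal counts (12566, 4299.8 to 60933). Cbln3, a secreted partner of Cbln1 in granule cells, was at 1393, 1314, 1506, 1277 and 1258 CPM against 0.694, 0.378, 0.421, 0.320 and 0.166 CPM, and the granule cell protocadherin-like gene Fat2 at 1293, 1226, 2134, 1526 and 1227 CPM against 1.05, 0.227, 0.971, 0.466 and 0.695 CPM. Fat2 was highest in cerebellum replicate 3. Cnpy1 (-11.16 ± 0.22), Ppp1r17 (-10.36 ± 0.19), a phosphatase inhibitor of Purkinje cells, Crtam (-11.02 ± 0.28), an adhesion molecule best known from lymphocytes, and the repressor Hes3, with 1 hippocampal count (3514, 631 to 138802), followed. The last 2 genes named by the rule had no hippocampal count in any library. Sycp1, a protein of the meiotic synaptonemal complex, stood at 23.5, 25.1, 13.1, 20.2 and 21.8 CPM in cerebellum, at least 1108-fold higher against a floor of 3 counts over the hippocampal libraries. Iltifb, at 18.1, 18.2, 11.6, 15.4 and 15.9 CPM, was at least 841-fold higher by the same floor, but it is a near-identical copy of Il22, and how the reads were divided between these genes is uncertain. Intervals and floors cover counting error only.

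**Figure D1:**
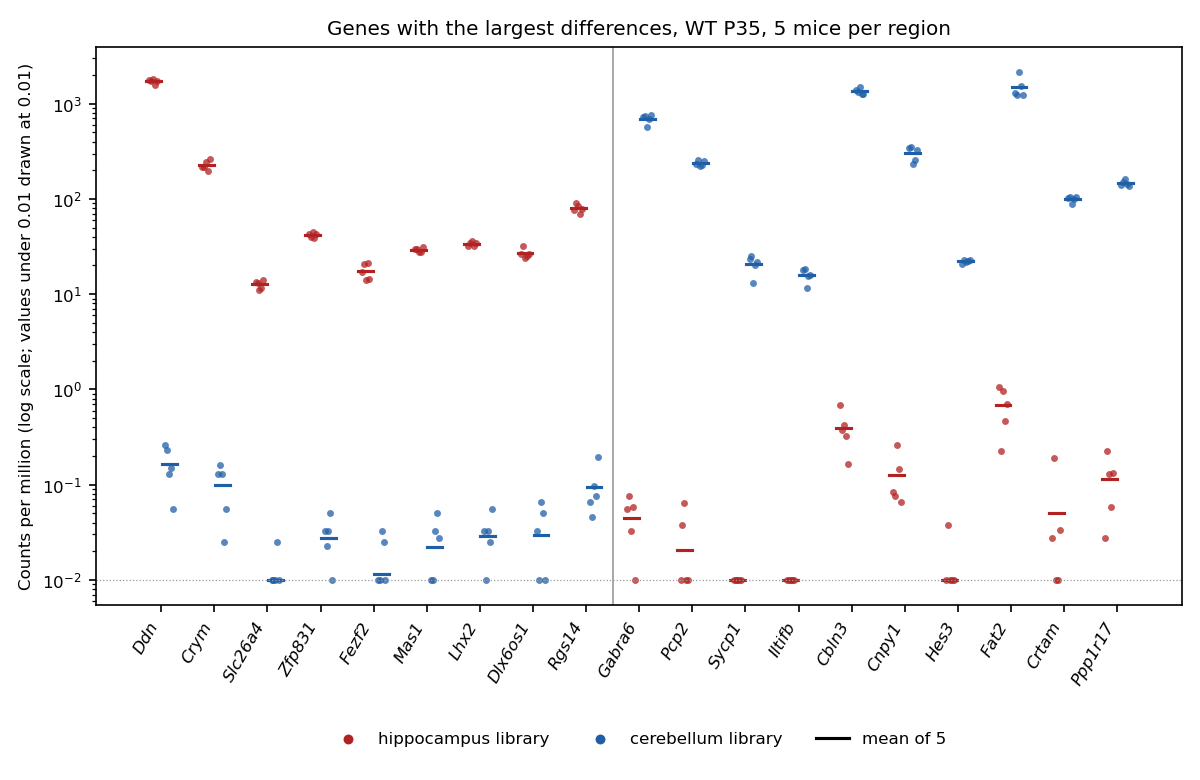
CPM on a log axis of 19 of the genes with the largest differences, 9 higher in hippocampus and 10 in cerebellum, 1 point per library and a line at the mean of 5; values under 0.01 are drawn at 0.01. Ddn lies at 1569 to 1821 CPM in every hippocampal library and Gabra6 at 569 to 762 CPM in every cerebellar one, with no overlap between the regions for any of the 19 genes.

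Genes of hippocampal neuron identity followed the label. Of 31 tested, 30 were higher in hippocampus and 0 in cerebellum, 29 of them at least 2-fold, with a median log2 fold change of 4.77. Emx2, which patterns the dorsal forebrain, was at 7.12 to 9.52 CPM with 1 cerebellar count (1547, 278 to 61119). Fibcd1, a CA1 gene, stood at 169, 127, 190.3, 148 and 185 CPM against 0.685, 0.457, 1.04, 0.527 and 0.275 CPM. C1ql2, a mossy fibre protein of dentate granule cells, stood at 50, 40.8, 55.6, 42.7 and 41.6 CPM against 0.424, 0.228, 0.130, 0.201 and 0.358 CPM. Neurod6, a basic helix-loop-helix factor of pyramidal cells, stood at 206, 218, 184, 159 and 188 CPM against 3.56, 3.72, 2.83, 3.24 and 4.27 CPM. The member that was not called was Neurod2, of the same family, at 111, 97.4, 107, 100.1 and 97.4 CPM in hippocampus and 102, 98.3, 105, 99.5 and 94 CPM in cerebellum (log2 fold change 0.04 ± 0.05, adjusted p = 0.471).

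Genes of cerebellar neuron identity were the mirror image: 43 of 44 were higher in cerebellum, all at least 2-fold, with a median of -4.34, and the exception, Grm2, was higher in hippocampus (1.01 ± 0.11). Neurod1, a member of the Neurod family expressed by granule cells, was at 398, 393, 341, 381 and 375 CPM against 24.6, 25.9, 26, 22.5 and 23.8 CPM. Car8, a carbonic anhydrase relative that binds the inositol trisphosphate receptor in Purkinje cells, was at 1817, 2021, 1419, 1746 and 1713 CPM against 5.19, 5.67, 6.64, 5.97 and 5.79 CPM. The hindbrain homeodomain factors En2 (-8.17 ± 0.15), Barhl2 (-7.68 ± 0.12) and Lhx1 (-7.32 ± 0.16) were separated without overlap. Skor2, a Purkinje cell repressor, had no hippocampal count and 958 cerebellar ones (at least 278-fold). Slc6a5, the glycine transporter of inhibitory interneurons and deep nuclei, was at 14.5 to 35.5 CPM in cerebellum with 5 hippocampal counts (652, 279.6 to 2009.5). Zic1, a granule cell zinc finger factor (-5.93 ± 0.34), and Rora, the ROR receptor of Purkinje cells (-3.26 ± 0.08), were also higher.

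**Figure D2:**
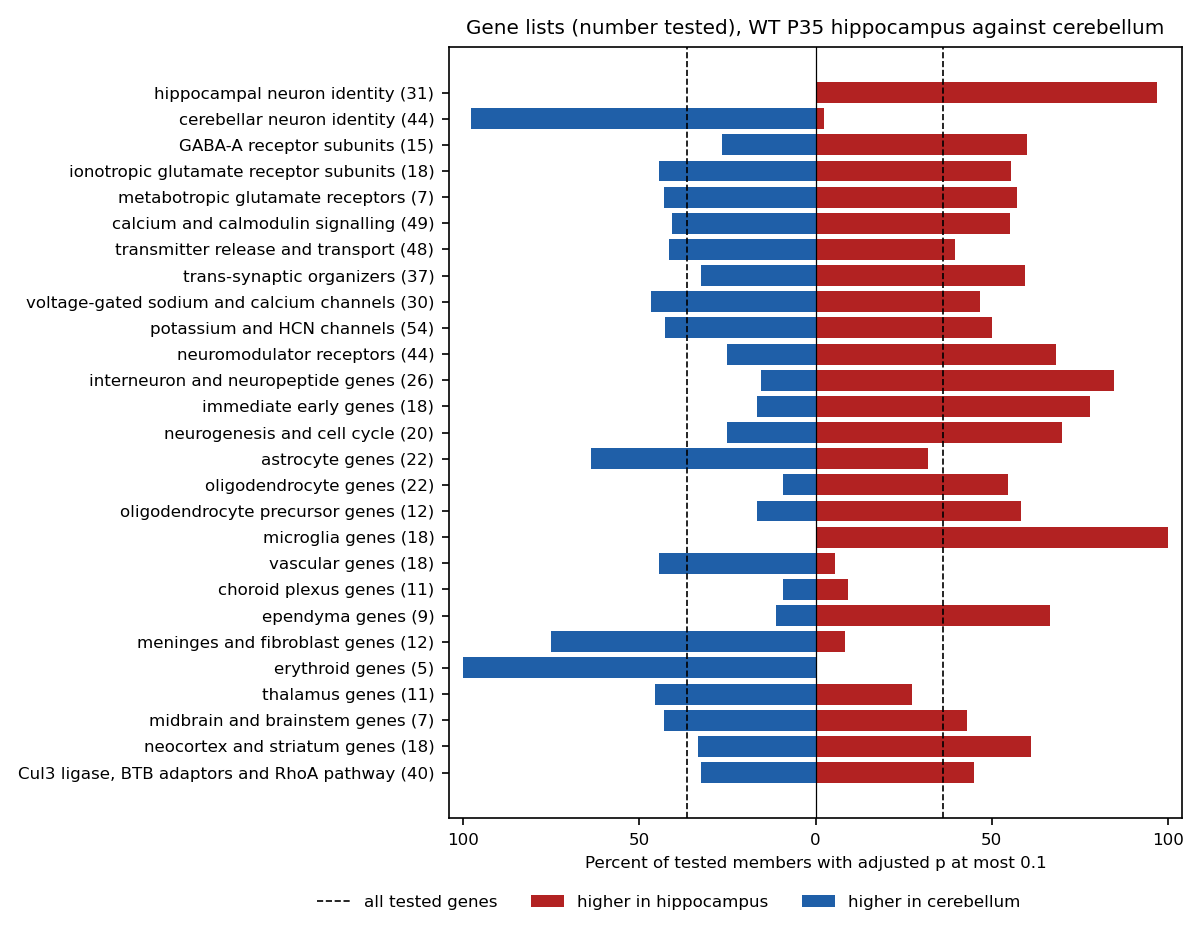
Percent of the tested members of each of 27 gene lists (number tested in brackets) that were called higher in hippocampus, to the right, or in cerebellum, to the left; dashed lines mark 36.2% and 36.6%, the shares over all tested genes. All 18 microglia genes lie on the hippocampal side and all 5 erythroid genes on the cerebellar side.

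The GABA-A receptor is a pentamer, commonly of alpha and beta subunits with a gamma or delta subunit, and the alpha and delta subunits set where it sits and how it answers GABA. Of 19 subunit genes, 15 were tested, 9 were higher in hippocampus and 4 in cerebellum, with a median log2 fold change of 1.33. Gabra5, whose receptors lie largely outside synapses of hippocampal dendrites, stood at 185, 184, 200.5, 148 and 196 CPM in hippocampus and 0.522, 0.343, 0.456, 0.351 and 0.496 CPM in cerebellum (8.72 ± 0.09, adjusted p = 4.2e-09), the smallest p of the whole comparison. Gabra2 (2.04 ± 0.06), Gabra3 (2.04 ± 0.11), Gabra4 (1.90 ± 0.09), Gabrb1 (1.81 ± 0.16), Gabrg3 (3.67 ± 0.17), Gabrg1 (0.51 ± 0.09) and Gabrq (1.80 ± 0.62, with overlap) were higher there too. On the cerebellar side Gabra6 was joined by Gabrd, the delta subunit that pairs with alpha6 in granule cells, at 203, 202, 159, 181 and 212 CPM against 21.4, 19.6, 19.9, 20.1 and 17.6 CPM (-3.27 ± 0.09). Gabrb2, a beta subunit of synaptic receptors, was higher in cerebellum by a smaller amount (-0.78 ± 0.06). Gabrr2 was not called (-0.63 ± 0.41), and Gabre, Gabrp, Gabrr1 and Gabrr3 were too low to test. Per kilobase of exon, the level in hippocampus was 61.4 CPM for Gabra5, 39.5 for Gabra2 and 0.0178 for Gabra6, and the level in cerebellum was 279 CPM for Gabra6, 9.61 for Gabra2 and 0.146 for Gabra5.

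Ionotropic glutamate receptors split in the same manner. All 18 subunit genes were tested and called, 10 higher in hippocampus and 8 in cerebellum, with a median of 0.31 and a median size of 1.32. Of the NMDA receptor subunits, Grin2b, which gives slow currents, was at 805, 672, 831, 609 and 811 CPM in hippocampus and 14.5, 17.3, 43.4, 31.8 and 15.8 CPM in cerebellum (5.05 ± 0.29), with the highest cerebellar values in replicates 3 and 5. Grin2c, the granule cell subunit, ran the other way, at 38, 32.2, 36.7, 37 and 34.9 CPM against 304, 280.4, 269, 220.4 and 258 CPM (-2.89 ± 0.09). Grin2a (2.36 ± 0.13) was higher in hippocampus and Grin3b, a rare glycine-binding subunit, in cerebellum (-3.20 ± 0.38). Grin1, the obligatory subunit, was at 222, 182, 224, 209 and 208 CPM and 168, 158, 249.6, 176 and 159 CPM, and its call (0.22 ± 0.09, adjusted p = 0.0549 in edgeR) was lost when mouse 1, 2, 5 or 6 was left out, with adjusted p of 0.224, 0.116, 0.127 and 0.173, or when the mouse was not a block (0.164). Grin3a (0.41 ± 0.09) was higher in hippocampus, and Grin2d was higher in cerebellum (-0.49 ± 0.20) except without mouse 2 or 5 (edgeR adjusted p of 0.112 and 0.116).

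Among AMPA receptor subunits, Gria2, which makes the channel impermeable to calcium, was 3.73-fold higher in hippocampus, at 1261, 1256, 1137, 1079.9 and 1195 CPM against 337, 353, 272, 301 and 331 CPM. Gria1 (0.88 ± 0.08) and Gria3 (0.81 ± 0.12) were higher there by less than 2-fold. Gria4, a subunit of granule cells and Bergmann glia, was at 66.9, 69.4, 65.9, 69.6 and 69.5 CPM in hippocampus and 611, 663, 523, 619 and 589 CPM in cerebellum (-3.13 ± 0.07). Per kilobase, Gria1 stood at 169 and Gria2 at 76.3 CPM in hippocampus, and Gria4 at 95.3 and Gria1 at 91.7 CPM in cerebellum. The delta receptor Grid1 was higher in hippocampus (1.49 ± 0.07). Of the kainate receptor subunits, Grik4 (2.08 ± 0.07) and Grik5 (1.15 ± 0.22, with overlap), the high-affinity pair, were higher in hippocampus, and Grik1 (-0.92 ± 0.07), Grik2 (-0.93 ± 0.06) and Grik3 (-0.74 ± 0.16) in cerebellum.

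Of the metabotropic glutamate receptors, 7 were tested, all were called without overlap, 4 higher in hippocampus and 3 in cerebellum. Grm5, which couples to phospholipase C, was at 487, 486, 499, 440.4 and 477 CPM in hippocampus and 12.7, 9.25, 14.8, 14.1 and 11.8 CPM in cerebellum (5.27 ± 0.12). Grm4, a presynaptic receptor of parallel fibres, had the largest difference, at 6.08, 6.95, 5.18, 9.26 and 5.53 CPM against 419, 404, 679.5, 472 and 416 CPM (-6.17 ± 0.21), with its highest value in cerebellum replicate 3. Grm7 (1.69 ± 0.06), Grm2 (1.01 ± 0.11) and Grm3 (0.65 ± 0.06) were higher in hippocampus and Grm8 (-0.79 ± 0.14) in cerebellum.

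**Figure D3:**
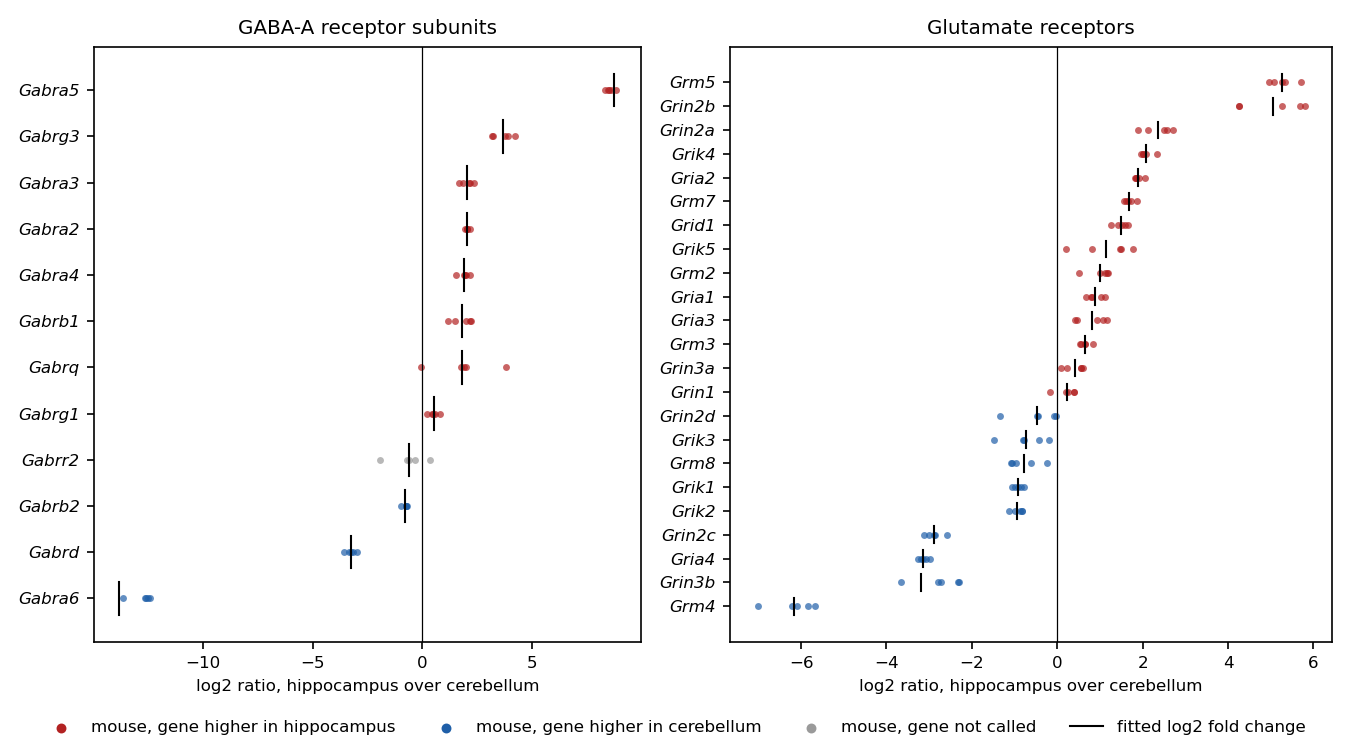
log2 ratio of hippocampus over cerebellum for GABA-A receptor subunits, left, and glutamate receptors, right, with 1 point per mouse and a black line at the fitted log2 fold change; points use a prior count of 2, which draws the ratios of Gabra6 toward 0. Gabra5 and Gabra6 lie at opposite ends, as do Grm5 and Grm4.

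Calcium and calmodulin signalling contained members at the extremes of both regions. Of 49 genes tested, 27 were higher in hippocampus and 20 in cerebellum, with a median of 0.50 and a median size of 1.56, against 0.48 over all genes. On the hippocampal side, Nrgn (neurogranin, which holds calmodulin at rest) was at 264, 259, 284, 256 and 226 CPM against 0.392, 0.457, 0.879, 0.552 and 0.413 CPM (8.91 ± 0.14). Camk2a, the kinase of long-term potentiation, was at 901, 834, 1071, 829 and 1079 CPM against 20.1, 23.7, 62.7, 33.3 and 20.3 CPM (5.01 ± 0.26), highest in cerebellum in replicate 3. Camkv, a kinase-like synaptic protein (7.52 ± 0.10), and the calcium sensors Hpca (4.77 ± 0.08) and Hpcal4 (4.70 ± 0.11) were also higher. On the cerebellar side, the inositol trisphosphate receptor Itpr1, the main calcium store channel of Purkinje cells, was at 4321, 4880.3, 5097, 4761 and 3957 CPM against 563, 579, 562, 558 and 566 CPM (-3.02 ± 0.09). The store pump Atp2a3 (-5.52 ± 0.08), the phospholipase Plcb4 (-3.90 ± 0.11) and the calcium buffers Pvalb (-4.39 ± 0.07), Calb2 (-3.27 ± 0.13) and Calb1 (-2.79 ± 0.08) were higher there. Of the genes of calmodulin itself, Calm2 (0.53 ± 0.11) and Calm3 (0.82 ± 0.08) were each less than 2-fold higher in hippocampus.

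Genes of transmitter release and transport were divided evenly, with 19 of 48 higher in hippocampus, 20 in cerebellum and 9 not called, and a median of -0.08. The glutamate transporter of hippocampal and granule cell terminals, Slc17a7, was at 736 to 904 CPM and 392 to 543 CPM (0.90 ± 0.07). Isoforms of the release machinery differed more. The syntaxin Stx1a was at 59.2, 59.8, 67.8, 64.1 and 63.6 CPM in hippocampus against 2.28, 2.01, 2.38, 2.03 and 2.09 CPM. The fast calcium sensor Syt2 was at 505, 499, 664, 521 and 441 CPM in cerebellum against 25.7, 27.7, 17, 31 and 26.3 CPM, and Syt1 was higher in hippocampus (1.59 ± 0.07). Unc13c, the priming factor of granule cells, was at 296, 302, 344, 303 and 273 CPM against 10.6, 12.1, 13.1, 15 and 11.4 CPM, and Rims3 was higher in cerebellum as well (-3.17 ± 0.14). Slc17a8, a vesicular glutamate transporter of some interneurons (6.85 ± 0.35), Doc2a (4.51 ± 0.19), Syt5 (4.45 ± 0.11) and Rab3b (2.13 ± 0.11) were higher in hippocampus. The GABA-synthesising enzymes differed little: Gad1 was higher in cerebellum (-0.73 ± 0.06) and Gad2 was not called (0.10 ± 0.08).

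Trans-synaptic organizers, which align release sites and receptors, were more often higher in hippocampus, with 22 of 37 against 12 and a median of 0.63. The cerebellin and C1q-like families, secreted proteins that bridge neurexins to receptors, held the largest values of either sign. Cbln1, released by parallel fibres onto Purkinje cells, was at 729, 684, 679, 558 and 690.2 CPM in cerebellum against 1.39, 1.28, 1.75, 3.14 and 1.89 CPM (-8.48 ± 0.26). Cbln2 (5.50 ± 0.45), Cbln4 (3.92 ± 0.23), C1ql2 (7.40 ± 0.19) and C1ql3 (3.76 ± 0.15) were higher in hippocampus. So were Nptx2, an activity-dependent pentraxin that gathers AMPA receptors (4.20 ± 0.13), and Lrrtm1 (4.11 ± 0.10) and Lrrtm4 (3.28 ± 0.09), postsynaptic neurexin ligands, whereas their relative Lrrtm3 was higher in cerebellum (-2.35 ± 0.07). Of the neurexins, Nrxn2 (-1.03 ± 0.11) and Nrxn3 (-0.52 ± 0.15) were higher in cerebellum.

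Voltage-gated sodium and calcium channel genes were also split evenly, 14 of 30 in each direction. The sodium channel genes Scn3a, at 97.6, 93.6, 92.7, 79.7 and 88.6 CPM against 1.73, 1.92, 2.86, 2.06 and 2.53 CPM, and Scn3b (6.32 ± 0.18) and the T-type calcium channel Cacna1h (5.08 ± 0.15) were higher in hippocampus. Another T-type channel, Cacna1g, ran the other way, at 41.3, 35.7, 37.5, 39.8 and 37.5 CPM against 317, 336, 478, 349.7 and 296 CPM (-3.19 ± 0.11), as did Cacna1a, the P/Q-type channel of Purkinje cells (-1.91 ± 0.14), and its partner Cacna2d2 (-3.11 ± 0.14). For Cacna1a the cerebellar values were 267, 268, 527, 339 and 255 CPM, highest in replicate 3. Over this list the mean log2 CPM of cerebellum replicate 3 was 6.04, against 5.50 to 5.64 in the other cerebellar libraries, and its part in the result was measured by leaving out mouse 3, which gave 15 higher in hippocampus and 14 in cerebellum.

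Of 54 potassium and HCN channel genes, 27 were higher in hippocampus and 23 in cerebellum, with a median of 0.25. Kcnj4, an inward rectifier, was at 66, 64.5, 71.8, 55.8 and 60.9 CPM in hippocampus against 0.490, 0.251, 0.326, 0.301 and 0.578 CPM. Kcnq5, of the M-current family, was at 127, 107, 142, 104 and 138 CPM against 1.66, 1.55, 1.89, 1.63 and 1.51 CPM. Kcnt2 (6.49 ± 0.08), Kcnip2 (6.10 ± 0.11) and Kcng1 (7.05 ± 0.37) were also among the 5 largest. In the cerebellar direction Kcnj12 (-4.48 ± 0.10), the leak channel Kcnk3 (-3.78 ± 0.13), Kcnt1 (-3.20 ± 0.16) and Kcnc1, of the fast Kv3 family (-2.0 ± 0.11), were among the largest. Kcnc1 was at 346, 320.3, 551, 363 and 308 CPM in cerebellum, with replicate 3 the highest, and at 83.7 to 98.5 CPM in hippocampus.

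Receptors for neuromodulators were mostly higher in hippocampus, 30 of 44 against 11, with a median of 2.08. The muscarinic receptor Chrm1 was at 154, 139, 157, 135 and 159.9 CPM against 0.294, 0.228, 0.912, 0.326 and 0.0826 CPM (8.72 ± 0.29). The serotonin receptors Htr1a, at 33.1, 38.8, 35.7, 37.9 and 41 CPM against 0.228, 0.206, 0.391, 0.301 and 0.248 CPM, Htr4 (7.22 ± 0.23) and Htr3a, the serotonin-gated channel of some interneurons, with 3 cerebellar counts (699, 239 to 3392), and the nicotinic subunit Chrna5 (6.07 ± 0.28) completed the largest 5. Htr2c, also a gene of the choroid plexus, was called (2.76 ± 0.53), but its cerebellar values of 2.55, 1.12, 3.78, 23.2 and 10.1 CPM were highest in replicates 5 and 6, where Ttr was high, and whether choroid plexus contributed was not tested. In cerebellum the nicotinic subunits Chrnb4 (-3.72 ± 0.42), at low level, and Chrna3 (-2.16 ± 0.27), Drd4, with 80 cerebellar and 6 hippocampal counts (-3.48 ± 0.55), and the stress hormone receptor Crhr1, at 47.5, 59.6, 48.9, 58.5 and 55.6 CPM against 5.77, 6.2, 6.47, 9.0 and 8.04 CPM, were among the largest.

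Interneuron and neuropeptide genes were higher in hippocampus in 22 of 26 cases and in cerebellum in 4. Sst (somatostatin) was at 72.1, 87.6, 76.3, 83.1 and 80.7 CPM against 0.718, 1.1, 1.01, 0.702 and 1.32 CPM, and Vip at 11.2 to 17.4 CPM with 4 cerebellar counts (617, 241 to 2265). Crhbp (8.07 ± 0.38), Cort (7.17 ± 0.43) and Pdyn (6.46 ± 0.40) were the other large ones, and Lhx6, a factor of interneurons from the medial ganglionic eminence, was at 12.2 to 15 CPM against 0.110 to 0.251 CPM. The 4 that were higher in cerebellum were Pvalb, at 561, 621, 420.3, 516 and 539 CPM against 25.1, 28.1, 21.7, 26.7 and 24.8 CPM, Calb2 (-3.27 ± 0.13), the opioid precursor Penk (-2.59 ± 0.06) and Nos1 (-0.82 ± 0.22, with overlap). Pvalb marks Purkinje cells and molecular layer interneurons in cerebellum and basket cells in hippocampus, and Calb2 marks cerebellar granule and unipolar brush cells.

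Immediate early genes, which neurons switch on within minutes of activity, were higher in hippocampus in 14 of 18 cases and in cerebellum in 3. Egr3 was at 36.7, 37.3, 40.3, 37.9 and 39.3 CPM against 0.196, 0.137, 0.553, 0.10 and 0.138 CPM and Arc at 123, 147, 136, 169 and 110.3 CPM against 23.3, 19.6, 20.4, 21.5 and 20.5 CPM. Egr2 (6.36 ± 0.47), Nr4a3 (2.72 ± 0.31) and Junb (2.11 ± 0.13) had the next largest values. Fos, Ier2 and Dusp1 were higher in cerebellum. Fos was at 10.2, 14.9, 17, 20.6 and 8.48 CPM in hippocampus and 26.9, 23.4, 65, 38.8 and 28.7 CPM in cerebellum (-1.33 ± 0.19, adjusted p = 0.00035), with cerebellum replicate 3 the highest, and Dusp1 at 8.41 to 12.5 CPM and 33 to 54.1 CPM. The mean log2 CPM of the list was 3.62 in cerebellum replicate 3 and 2.87 to 3.07 in the other cerebellar libraries, and without mouse 3 the counts were 13 and 3. The time between handling and dissection is not given in the sources used here.

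Genes of neurogenesis and the cell cycle were higher in hippocampus in 14 of 20 cases and in cerebellum in 5. Igfbpl1 and Draxin, expressed in new neurons, were at 4.83, 5.03, 5.08, 4.98 and 4.47 CPM against 0.0979, 0.0685, 0.0326, 0.0753 and 0.303 CPM and at 1.84 to 2.0 against 0.160 to 0.358 CPM. Sox11 (2.86 ± 0.12) and the migration protein Dcx (2.05 ± 0.18), which label young neurons, and the mitotic genes Top2a (2.30 ± 0.16) and Mki67 (1.87 ± 0.16) were higher in hippocampus. Higher in cerebellum were Eomes (-3.42 ± 0.21), which marks dividing intermediate progenitors in the dentate gyrus and unipolar brush cells in the cerebellum, Cdkn1a (-2.12 ± 0.11), Hopx (-1.0 ± 0.08), also a gene of astrocytes, and the replication genes Mcm2 (-0.95 ± 0.09) and Mcm5 (-0.96 ± 0.09).

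Astrocyte genes went both ways, 7 of 22 higher in hippocampus and 14 in cerebellum. Gdf10, which marks Bergmann glia of the cerebellum, was at 103, 104, 113, 101 and 99.5 CPM against 8.93, 7.14, 10.4, 7.72 and 9.01 CPM, and S100b (-2.11 ± 0.06), the glutamate transporter Slc1a3 (-1.16 ± 0.07), Aldoc (-1.28 ± 0.06) and Slc4a4 (-1.40 ± 0.10) were higher there too. The other glutamate transporter, Slc1a2, was higher in hippocampus, at 2857, 2657, 2966, 2434 and 3151 CPM against 769.7, 748, 1542, 1176 and 774 CPM (1.55 ± 0.18), as were Gfap (1.58 ± 0.09), Slc6a11 (1.49 ± 0.14) and Id3 (1.25 ± 0.14). Gja1, a gap junction gene used as a general marker, was not called (0.02 ± 0.05).

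Oligodendrocyte genes differed little. Of 22, 12 were higher in hippocampus, 2 in cerebellum and 8 were not called, only 3 differed by 2-fold, and the 12 became 7 without mouse 2 or without mouse 5. Mbp, the myelin protein, was at 943, 1241, 1353, 1822 and 1039 CPM in hippocampus and 1183, 545, 1681, 1065 and 1252 CPM in cerebellum (adjusted p = 0.478), with the lowest value in cerebellum replicate 2. Opalin (1.39 ± 0.16) and Mal (1.23 ± 0.20) had the largest differences. Of 12 genes of oligodendrocyte precursors, 7 were higher in hippocampus and 2 in cerebellum, with Pdgfra, the growth factor receptor of these cells, at 80.1, 78.5, 91.1, 78 and 85.1 CPM against 30.1, 26, 29, 34.1 and 29.4 CPM.

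Every microglia gene was higher in hippocampus. All 18 were tested, all were called, each by at least 2-fold and with no overlap between libraries, and the median log2 fold change was 1.89, with a range from 1.51 (C1qa) to 2.32 (Siglech). Cx3cr1, the fractalkine receptor, was at 58.2, 57.9, 55.7, 52.7 and 59.6 CPM in hippocampus and 13.7, 12.5, 14.1, 12.7 and 14.2 CPM in cerebellum (2.08 ± 0.06, adjusted p = 3.9e-08). P2ry12, the ADP receptor of resting microglia, was at 44.1, 47.3, 45.2, 41.7 and 46.7 CPM and 9.33, 8.31, 9.93, 8.45 and 9.42 CPM, and Tmem119 at 16.3, 18.4, 16.4, 18.4 and 17.9 CPM and 4.11, 3.63, 3.97, 4.54 and 4.08 CPM. The summed level of the list was 538 to 573 CPM in hippocampus and 141 to 175 CPM in cerebellum. The differences were smaller for the complement genes C1qa, C1qb (1.57 ± 0.08) and C1qc (1.67 ± 0.08) than for P2ry12 (2.31 ± 0.07), Fcrls (2.21 ± 0.09) and Gpr34 (2.20 ± 0.09), though this difference between genes was not tested.

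Vascular genes were close to equal. Of 18, 1 was higher in hippocampus (Mfsd2a, 0.70 ± 0.08) and 8 in cerebellum, none by 2-fold, and the endothelial marker Cldn5 was at 29.1 to 34.3 CPM and 25.5 to 40.5 CPM (adjusted p = 0.582). Genes of the meninges and fibroblasts were higher in cerebellum in 9 of 12 cases, with summed levels of 240 to 396 CPM in hippocampus and 716 to 961 CPM in cerebellum, and all 3 defining markers were detected in both regions. Slc47a1, a transporter of the meninges (-3.09 ± 0.23), Ptgds (-1.64 ± 0.16) and Col1a2 (-1.40 ± 0.15) led. All 5 erythroid genes were higher in cerebellum, with summed levels of 169 to 295 CPM in hippocampus and 311 to 571 CPM in cerebellum and Hbb-bs, a beta-globin, at 98, 113, 87.4, 146 and 88.7 CPM against 228, 200.0, 147, 277 and 148 CPM. These globin genes have near-identical copies, and how the counting divided reads among them is uncertain. Of 11 choroid plexus genes, 1 was higher in each region. Otx2, which cerebellar granule cells also express, was higher in cerebellum, at 7.47, 9.16, 8.14, 16 and 12.4 CPM against 0.139, 0.378, 4.86, 4.22 and 0.265 CPM. Kl was higher in hippocampus (2.01 ± 0.91, adjusted p = 0.0831 in edgeR). That call was lost without mouse 1, 2 or 3 (adjusted p of 0.21, 0.217 and 0.188), without the block (0.425) or with mouse P35_23 included (0.125). Without mouse 3, 5 choroid plexus genes were higher in cerebellum and 0 in hippocampus. Of 9 ependyma genes, 6 were higher in hippocampus and 1, Dnah11, in cerebellum (-3.03 ± 0.13). The regions did not overlap for 3 of the 9. Their summed level ran the other way, at 23.1 to 42.5 CPM in hippocampus and 41.1 to 49.0 CPM in cerebellum. The hippocampal call of Dynlrb2 was lost without mouse 1 or 3 (edgeR adjusted p of 0.144 and 0.123) or without the block (0.118).

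Lists of neighbouring tissue gave no uniform direction. Of 11 thalamus genes, 3 were higher in hippocampus and 5 in cerebellum, and Calb2 and Prkcd (-1.36 ± 0.09), among those higher in cerebellum, are also expressed by cerebellar neurons. Of 21 genes of midbrain and brainstem, 7 were tested, with 3 higher in each region. All 21 together summed to 6.66 to 11.6 CPM in hippocampus and 29.8 to 70.3 CPM in cerebellum. Slc6a5, a gene of cerebellar neurons, is a member. Of 18 genes of neocortex and striatum, 11 were higher in hippocampus and 6 in cerebellum. The striatal receptors Drd1 (3.23 ± 0.19) and Adora2a (-0.61 ± 0.15) went in opposite directions.

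Cul3, the gene mutated in the series, was not called between the WT regions. Its level was 182, 196, 178, 164 and 185 CPM in hippocampus and 183, 190.1, 154, 198 and 188 CPM in cerebellum (log2 fold change -0.01 ± 0.07, adjusted p = 0.905); without mouse 5 the sign turned (0.06, edgeR adjusted p = 0.48). Cul3 is the scaffold of a ubiquitin ligase that recognises its substrates through BTB-domain adaptors. Of 40 genes of the ligase, its adaptors and the RhoA pathway, 18 were higher in hippocampus, 13 in cerebellum and 9 were not called, with a median of 0.01. Several adaptors differed widely. Enc1, an actin-binding kelch protein, was at 757, 714, 804, 657 and 714 CPM in hippocampus against 6.07, 6.28, 8.92, 7.12 and 6.69 CPM in cerebellum (6.71 ± 0.10). Kctd16 (5.06 ± 0.11) and Kctd8, both auxiliary subunits of GABA-B receptors, had opposite directions. Kctd8 was at 37.1, 41.2, 30.4, 34.4 and 37 CPM in cerebellum against 5.30, 6.2, 5.05, 5.47 and 4.34 CPM in hippocampus. The third such subunit, Kctd12, was higher in cerebellum by a smaller amount (-0.34 ± 0.08). Klhl2 (2.63 ± 0.07), Arhgef25 (2.40 ± 0.05), a RhoA exchange factor, and Kctd13, an adaptor that directs Cul3 to RhoA (1.26 ± 0.06), were higher in hippocampus. The core partner Rbx1 (-0.07 ± 0.07) was not called and Rhoa was higher in cerebellum (-0.18 ± 0.07, adjusted p = 0.0627).

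Pairs of related genes were set side by side to compare the directions of their region differences. In 28 of 34 pairs the members were called in opposite directions. The widest was Gabra5 and Gabra6, whose log2 ratios (prior count of 2) differed by 20.94 to 22.12 within a mouse, followed by Cbln4 and Cbln1 (10.99 to 13), Nrgn and Pcp4, both calmodulin-binding proteins (10.00 to 11.51), and Neurod6 and Neurod1 (9.41 to 9.85). Meis2 (3.54 ± 0.23) and Meis1 (-5.02 ± 0.15), homeodomain factors, and Chn1 (3.42 ± 0.08) and Chn2 (-4.78 ± 0.14), Rac regulators, differed likewise. Of the G-protein regulators, Rgs4 was higher in hippocampus (3.51 ± 0.07) and Rgs8, a Purkinje cell gene, in cerebellum (-3.53 ± 0.11). Of the postsynaptic scaffolds, Homer1 (1.84 ± 0.08) was higher in hippocampus and Homer3 (-2.27 ± 0.06) in cerebellum. Of the neuronal glutamate transporters, Slc1a1 (2.29 ± 0.06) was higher in hippocampus and Slc1a6 (-4.80 ± 0.07), of Purkinje cells, in cerebellum. In the 6 other pairs both members were higher in cerebellum (Calb1 and Calb2, Kcnd2 and Kcnd3, Scn2a and Scn1a) or 1 was not called (Cplx1, Vamp2 and Slc17a6). Kcnd3 (-0.19 ± 0.06) was just past the threshold without mouse 2 or 5 (edgeR adjusted p of 0.101 and 0.1). The fold changes of the uncalled Vamp2 (-0.11 ± 0.25) and Slc17a6 (0.09 ± 0.40) turned sign when 1 mouse was left out: Vamp2 was at 0.17 without mouse 3 and 0.02 without mouse 5, and Slc17a6 at -0.32 without mouse 2 and -0.15 without mouse 5. The pairs were picked by knowledge of the families and with earlier results of these data known. Their number is therefore no measure of the genome. Opposite calls also do not show that the higher member of a pair changed between the regions. Per kilobase of exon it did for Gabra5 (61.4 CPM in hippocampus and 0.146 in cerebellum) and Gabra6 (0.0178 and 279 CPM). It did not for Itpr2 (2.63 and 1.86 CPM) and Itpr1 (30.9 and 251 CPM), or for Ryr2 (13.1 and 9.59 CPM) and Ryr1 (0.905 and 2.32 CPM).

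**Figure D4:**
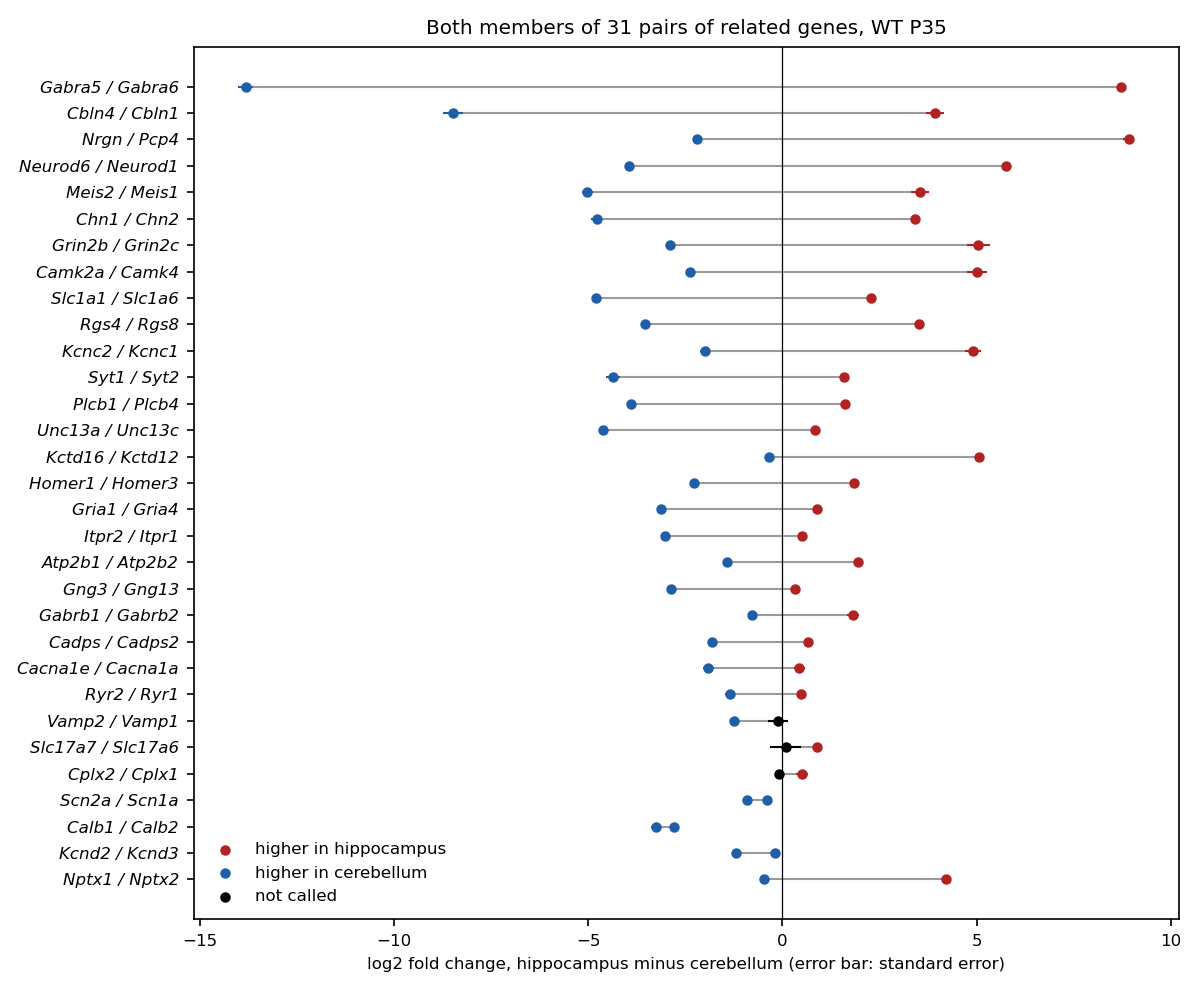
log2 fold change of hippocampus minus cerebellum, with SE, of both members of 31 of the pairs of related genes, ordered by the difference within the pair. Members of 25 of these pairs were called on opposite sides of 0, from Gabra5 at 8.72 and Gabra6 at -13.82 down to smaller contrasts such as Ryr2 at 0.47 and Ryr1 at -1.36.

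The same comparison in Cul3+/- mice used other animals. In 5 mice, 17394 genes were tested and 13532 (77.8%) were called, 6825 (39.2%) higher in hippocampus and 6707 (38.6%) in cerebellum. Of the genes at least 2-fold different in WT, 4460 were tested there, 4335 (97.2%) were called in the same direction and 0 in the opposite one. Of all genes called in WT, 12510 were tested in Cul3+/- mice, 88.7% were called in the same direction and 31 in the opposite one, and 82.0% of the Cul3+/- calls were WT calls of the same direction. Gabra5 differed by 8.34 on the log2 scale in Cul3+/- mice (8.72 in WT), Grm5 by 5.15 (5.27), Cbln1 by -8.54 (-8.48) and Cx3cr1 by 1.87 (2.08), and all 18 microglia genes were higher in hippocampus again. Other genes lay further apart. Ddn differed by 12.37 (13.32 in WT), Slc26a4 by 9.06 (10.43) and Gabra6 by -16.16 (-13.82). In the lower region of the WT mice they stood at 0.0551 to 0.261, 0 to 0.0251 and 0 to 0.0756 CPM. The edgeR region by genotype test gave unadjusted p of 0.0285, 0.234 and 0.0192. Whether the low levels account for the gaps was not tested.

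Whether the region difference depended on genotype was tested as an interaction over 20 libraries and 18350 genes. None (0%) was called by edgeR, with a smallest adjusted p of 0.353, although 2528 genes had an unadjusted p under 0.05. DESeq2 called 5. The smallest p in each direction belonged to Pcdhgb5, a protocadherin of the gamma cluster (Cul3+/- minus WT difference of 0.80 ± 0.15 on the log2 scale), Svep1 (0.62 ± 0.13), Lmtk3 (0.72 ± 0.15), C77080 (0.70 ± 0.14) and Plxnd1 (0.46 ± 0.10), and to Kcnt2 (-0.73 ± 0.11), Arhgap15 (-0.69 ± 0.12), Rgs4 (-0.58 ± 0.11), Gm6565 and Slc39a12 (-0.36 ± 0.08). No size is given for Gm6565, a processed pseudogene at 0 to 8.14 CPM in the WT libraries, because it fell under the count filter when the Cul3+/- mice were fitted alone. None of these 10 passed the threshold. On simulated data without a mouse effect, the edgeR interaction fit recovered 40% of genes changed by 0.5 on the log2 scale. It recovered 78% of those changed by 1. Interactions of such sizes can therefore go uncalled.

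For most genes the region difference at P35 differed from that at P7. Over 22 WT libraries, the hippocampus to cerebellum ratio differed between the ages for 12063 of 18989 genes (63.5%), higher at P35 for 6147 (32.4%) and lower for 5916 (31.2%), and by at least 2-fold for 4666 (24.6%). At P7 alone 39.2% of 17759 tested genes were higher in hippocampus and 40.0% in cerebellum. Of the genes at least 2-fold different at P35, 4220 were tested at P7, where 3159 were called in the same direction, 502 in the opposite one and 559 were not called. At P7, 42 of 44 cerebellar identity genes were higher in cerebellum and 2 in hippocampus, and 28 of 31 hippocampal identity genes were higher in hippocampus and 2 in cerebellum.

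The hippocampus to cerebellum ratio of oligodendrocyte and microglia genes was mostly higher at P35 than at P7. A ratio does not show in which region the level changed. At P7, 19 of 21 tested oligodendrocyte genes were higher in cerebellum and 2 in hippocampus, with a median log2 fold change of -2.07. The ratio was higher at P35 for 21 of 22 and lower for 0. For Mog, a protein of mature myelin, the log2 fold change was -5.11 at P7 and 0.42 at P35. Microglia genes had no common direction at P7, with 8 of 18 higher in hippocampus and 4 in cerebellum and a median of 0.04, and the ratio was higher at P35 for all 18. For Cx3cr1 it moved from 0.59 to 2.08 (change 1.49 ± 0.07, adjusted p = 5.6e-10) and for C1qa from -0.10 to 1.51. Of 21 genes of neurogenesis and the cell cycle, 17 were higher in cerebellum at P7 and 1 in hippocampus, and the ratio was higher at P35 for 17 and lower for 3. Sox11 moved from -1.02 to 2.86 and Igfbpl1 from -1.84 to 5.38. The external granular layer of the cerebellum, where granule cell precursors divide, is present at P7 and gone in the adult.

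Genes of transmitter release and ionotropic glutamate receptors more often had a lower ratio at P35. Of 48 genes of transmitter release and transport, the ratio was lower at P35 for 36 and higher for 8, with a median change of -0.85. At P7, 31 of 47 were higher in hippocampus, against 19 of 48 at P35. Slc17a7 moved from 3.15 to 0.90, Unc13c from -0.66 to -4.61 and Snap25 from 1.24 to -0.43. Of 18 ionotropic glutamate receptor genes the ratio fell for 14 and rose for 2, and Grin2c moved from -0.08 to -2.89. Other lists were more evenly divided. Of 37 trans-synaptic organizers the ratio was lower at P35 for 20 and higher for 12, with a median change of -0.49, and of 45 neuromodulator receptors it was lower for 14 and higher for 21, with a median change of 0.53. Of the alpha subunits of the GABA-A receptor, Gabra5 moved from 5.90 to 8.72 (adjusted p = 1.4e-06) and Gabra6 from -10.97 to -13.82 (adjusted p = 0.04, with hippocampal counts near 0, so that the fitted sizes depend on the prior count). Camk4, a calmodulin kinase of granule cells, turned from 1.19 to -2.38.

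Levels in this paragraph are scaled over all P7 and P35 libraries of the series. The smallest p for a ratio higher at P35 belonged to Kcnq5 (change 5.12 ± 0.10, adjusted p = 7.3e-13). Its level was 102 in hippocampus and 48.5 in cerebellum at P7 and 129.8 and 1.73 CPM at P35. The cerebellar mean was thus far lower at P35, and the hippocampal mean somewhat higher. Insm1, a factor of newly born neurons and endocrine cells, went from 7.75 in hippocampus and 152 in cerebellum to 4.07 and 0.415 CPM, and Basp1, a protein of growing axons, from 684 in hippocampus and 417 in cerebellum to 278 and 7.02 CPM. Mcm6, of the replication helicase (4.33 ± 0.10), and Ypel1 (3.60 ± 0.08) completed the 5. In the other direction, Snrk, a kinase of the AMPK family, went from 127 in hippocampus and 91.9 in cerebellum to 102 and 618 CPM (change -3.08 ± 0.08), and Nab2, a corepressor of EGR factors, from 22.5 in hippocampus and 3.14 in cerebellum to 29.3 and 67.6 CPM. Golga7b (-2.84 ± 0.07), the release site protein Erc1 (-2.43 ± 0.06) and Tmem266 (-3.67 ± 0.10) were the remaining 3.

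**Figure D5:**
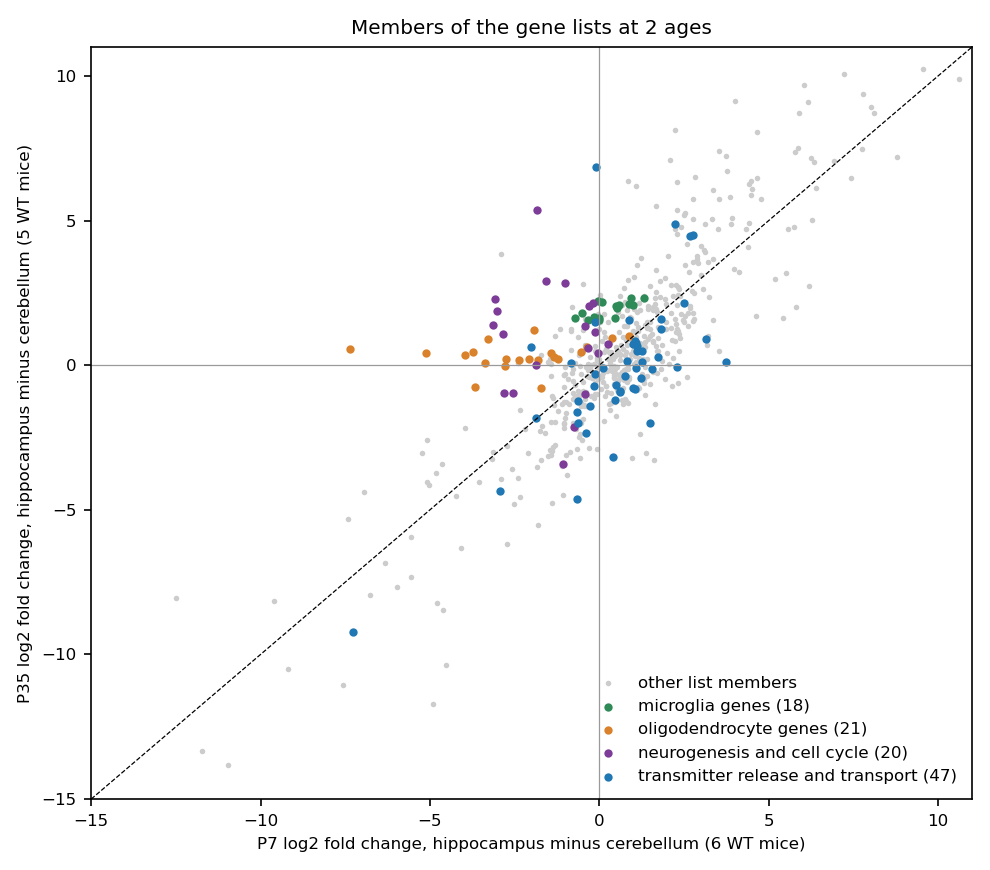
log2 fold change of hippocampus minus cerebellum at P7 (x axis, 6 WT mice) and P35 (y axis, 5 WT mice) for the members of the gene lists tested at both ages; the dashed line marks equal values. Of the oligodendrocyte genes, 19 of 21 were called on the cerebellar side at P7, among them Mog at -5.11 (0.42 at P35), and all 18 microglia genes lie above 0 at P35.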

How the data were processed

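RNA of whole tissue was depleted of ribosomal RNA and sequenced as stranded total RNA libraries. The authors trimmed reads with Cutadapt 1.14, aligned them with STAR 2.5.3a to GRCm38.p5 and deposited expected counts per gene from RSEM 1.3, of which 5.76% were not whole. The strand setting is not given in the sources used here. The expected counts were rounded. Gene names came from GENCODE M21 (53274 of 53465 identifiers) and promoters from RefSeq GRCm38.p6.

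Counts were fitted with edgeR 4.0.16 (R 4.3.3): genes filtered by filterByExpr (minimum count 10, total 15), TMM scaling, mouse as a block, quasi-likelihood test, adjusted p of 0.1. CPM used TMM library sizes and log2 values a prior count of 2. SE is the log2 fold change divided by the root of F. The pairing comes from the labels, which name the same mouse for both regions. Deviations from the region means correlated between the libraries of a mouse at 0.10, 0.17, -0.06, 0.18 and -0.00 across genes for mice 1, 2, 3, 5 and 6. Between libraries of different mice the values ran from -0.29 to 0.26, so the same-mouse values lay within that range. Replicate libraries differed by more than sampling noise (chi-square per degree of freedom of 8.61 to 161). With 27477533 to 41106370 counts per library, a floor of 3 counts was used.

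On simulated data with 200 changed genes among 17460, the WT fit recovered 52% of them, and 80% of those changed by 1 on the log2 scale, with 17 other genes called. The simulated data held no mouse effect and far fewer changed genes than the 72.7% called in the WT comparison. These shares therefore do not carry over to that comparison. Alternatives were upper-quartile scaling, DESeq2 1.42.0, no filter, no block, the 2 mice of disputed genotype included and each mouse left out. Of these 2 mice, the WT fit took in only P35_23, which is labelled WT. Genes named were the 10 largest fold changes in each direction (mean of at least 10 CPM in the higher region, the same direction in all 5 mice, no Gm or Rik number), up to 5 called members in each direction per list, all receptor subunits, related pairs, Cul3, the 5 smallest p in each direction per interaction, and tissue markers, except some genes that are not reported here; other list members were picked after their values were seen. The members and lists were chosen with earlier results of these data known.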

Additional observations from a re-analysis of the deposited data

Results flagged for a closer look

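In 98 groups of 5 libraries tested for 1 library apart from the rest by Dixon's criterion, 7 were so, and chance flags about 1 in 20 groups. Of these, 3 concerned cerebellum replicate 3: its mitochondrial share of 7.86%, its mean log2 CPM of 6.04 over the voltage-gated sodium and calcium channels, and its mean of 3.62 over the immediate early genes. Cerebellum replicate 2 was low in oligodendrocyte genes, with a mean log2 CPM of 5.74 against 6.51 to 6.73 in the other cerebellar libraries. The other 3 were values of a few counts: Hes3 at 0.0378 CPM and Crtam at 0.189 CPM in hippocampus replicate 2, and Slc26a4 at 0.0251 CPM in cerebellum replicate 5.

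The hippocampus to cerebellum ratio differed between P7 and P35 for 12063 genes by the interaction test. The log2 ratio changed by 5.12 for Kcnq5, 7.57 for Insm1, 4.33 for Mcm6, 3.60 for Ypel1 and 4.57 for Basp1, and by -3.08 for Snrk, -4.07 for Nab2, -2.84 for Golga7b, -2.43 for Erc1 and -3.67 for Tmem266.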

How the results depend on the processing

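The 12698 genes called in WT became 12684 with upper-quartile scaling, 11947 with DESeq2 and 13894 without the low-count filter. They became 13333 with mouse P35_23 included and 11754 to 13152 with 1 mouse left out. Without the replicate block, 12711 were called, and 4611 in place of 4620 at least 2-fold; Grin1, Kl, Dynlrb2 and Plekhg1 lost their calls without it. At least 2-fold differences ranged from 4628 to 4827 with 1 mouse left out and numbered 6284 without the filter. The genotype interaction called 5 genes with DESeq2 and 1 without the filter, and 0 with any mouse left out; the cause was not tested. Cul3+/- counts ranged from 12890 to 13410 and age counts from 11555 to 12069 with 1 mouse left out. Of the values of 271 named genes under 10 settings, 2676 stayed in direction and on their side of the threshold, 26 (8 genes) lost the call, and 1 gained it. The sign turned in 5, none of them called. Cul3 ranged from -0.065 to 0.056 with 1 mouse left out (above 0 without mouse 5), Vamp2 from -0.29 to 0.17 (0.17 without mouse 3 and 0.02 without mouse 5) and Slc17a6 from -0.32 to 0.42 (-0.32 without mouse 2 and -0.15 without mouse 5); the cause was not tested. Of 54 list counts, 5 moved by more than 1.5 times in some setting. Depth limits genes near 0 in 1 region, whose ratios rest on few counts.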

Other observations

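Slc6a2, the noradrenaline transporter, had 341 counts over the cerebellar libraries and 2 over the hippocampal ones, and was too low in most libraries to be tested. Most of the cerebellar counts came from replicate 3, at 8.59 CPM against 0.165 to 0.853 CPM in the others.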
